A study of Oryza sativa with 12 samples.

Results

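The aleurone-high genes are 98 genes of the developing rice (Oryza sativa) seed whose counts stood highest in the aleurone. They were taken from the 37466 genes of the deposited table that carry a BGIOSGA identifier and no symbol, of 37878 genes in all. Each had 50 counts or more in all 3 aleurone libraries and an aleurone mean at least 5 times the mean of each other tissue. The mean is in CPM, a gene's count divided by the library's total and scaled by 1e6. The rule allows the 100 genes with the highest aleurone mean, and 98 met it. Of 5365 such genes with 50 counts or more in every aleurone library, the 98 are 1.83%. The genes were thus chosen by their aleurone level and its contrast with the other tissues, so both are given as a description with no test.

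The study counted transcripts in 12 libraries, 3 each from pericarp (the maternal fruit wall), aleurone, embryo and endosperm, from untreated plants grown in the field. The sources used here do not name the cultivar, the seed's age or the way the tissues were separated. Library totals were 5689112 to 16005961 counts for aleurone, 14205388 to 18169845 for embryo, 2879282 to 6301388 for pericarp and 6367350 to 24412371 for endosperm. The design text calls the 3 libraries of each tissue biological replicates and does not say whether tissues shared seeds. Each library keeps its column header's number, and in a bulk sample fewer cells of a type and less RNA per cell cannot be told apart.

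The aleurone is the outer cell layer of the cereal endosperm. Its cells stay alive in the dry grain, fill with oil bodies and with protein bodies that hold phytate and minerals, and in germination secrete the enzymes that break down the starchy endosperm. Abscisic acid and gibberellin act against each other on this layer.

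None of the 98 genes has a symbol, a product description or a gene ontology term in the table, and none of the identifiers is in the RefSeq gene table used. No function is therefore given to any of them, and each is named by its identifier and its position. Positions come from the deposited table, and the sources used here name no genome build for it. CPM is not per length, so the order of genes by CPM is an order of read share and not of transcript number.

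Aleurone-high genes were of low to moderate abundance. The aleurone mean ran from 8.77 to 442 CPM with a median of 28.2. At least 100 CPM was reached by 9 genes, at least 50 CPM by 25 and at least 20 CPM by 73. Together they held 0.346%, 0.898% and 0.354% of all counts in aleurone 1, 2 and 3. Their summed level was 5329 ± 3163 CPM in aleurone (SD, n = 3), 302 ± 185 in pericarp, 231 ± 47.1 in embryo and 125 ± 43.6 in endosperm. The 10 most abundant genes made up 46.1% of the aleurone sum.

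**Figure D1:**
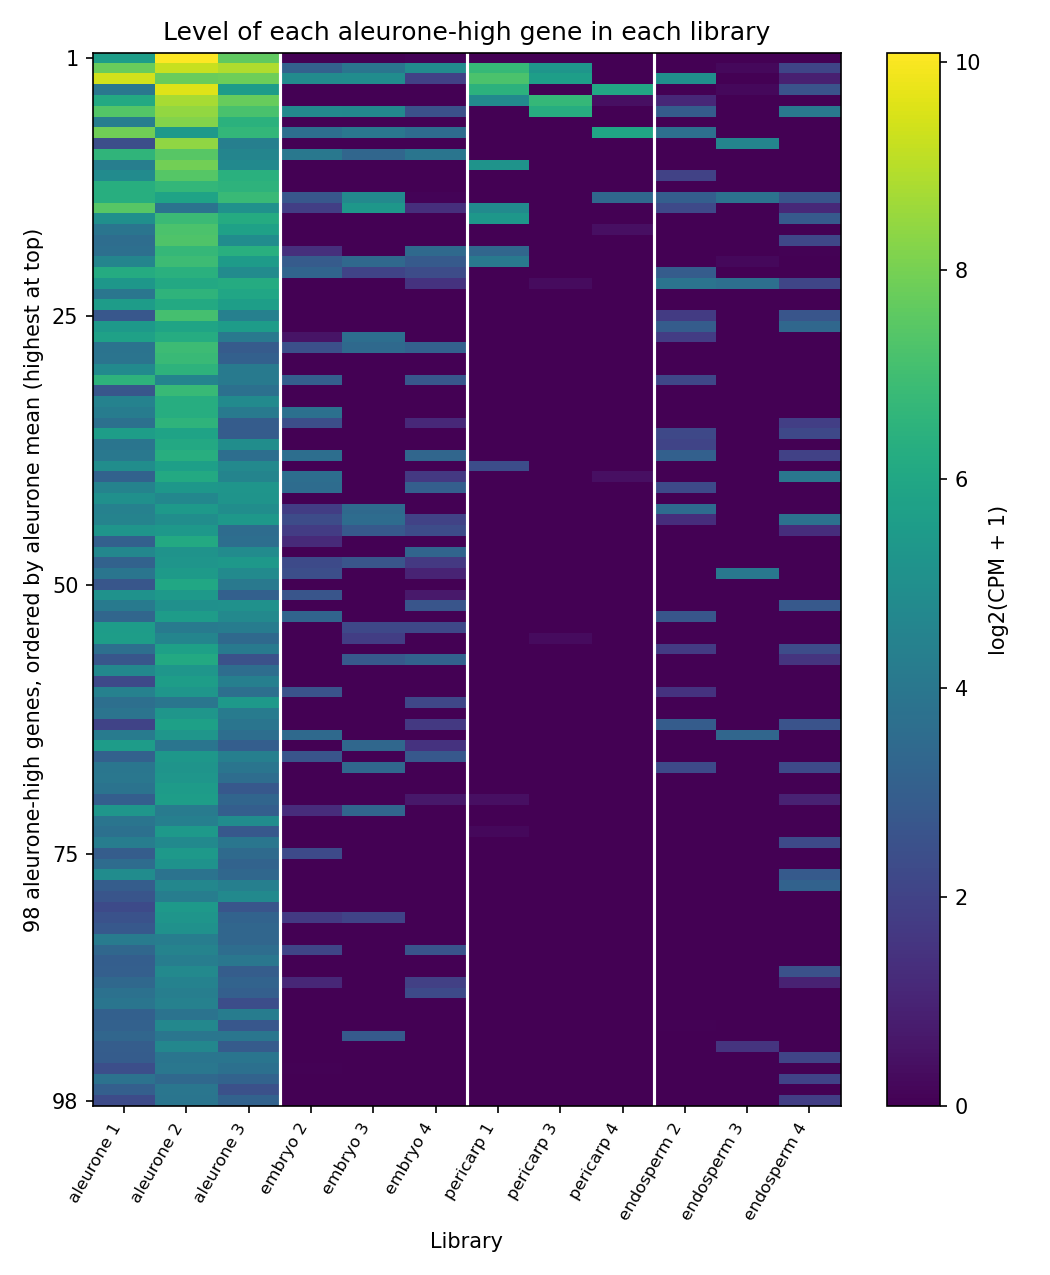
Level of each of the 98 aleurone-high genes (rows, highest aleurone mean at the top) in each of the 12 libraries (columns), as log2(CPM + 1). All 3 aleurone columns are filled in every row, aleurone 2 is the brightest in most rows, and 79.3% of the cells in the other 9 columns are at 0.

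BGIOSGA012712 had the highest aleurone mean in CPM of the 98 (chromosome 3, 16148329 to 16148775, plus strand). It stood at 48.0, 1082 and 194 CPM in aleurone 1, 2 and 3. Outside the aleurone it had a single count, in embryo 4. All 3 aleurone libraries lay above the other 9, and aleurone 2 was 22.5 times aleurone 1, which gives a mean of 442 ± 560 CPM (SD, n = 3). That mean was at least 1992-fold above a floor of 3 counts over the 3 libraries in pericarp and 7477-fold in endosperm.

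BGIOSGA024866 was second (chromosome 7, 1785014 to 1790281, minus strand), at 219, 603 and 469 CPM in aleurone 1, 2 and 3. It had 7.76, 14.3 and 28.3 CPM in the embryo libraries, 106.5 and 37.4 CPM in pericarp 1 and 3, and 0 in pericarp 4. In endosperm 2, 3 and 4 it stood at 0, 0.157 and 3.28 CPM. Every aleurone library was above every other library, and the aleurone mean was 8.97 times that of pericarp.

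BGIOSGA002444 (chromosome 1, 2299296 to 2299748, minus strand), was the member with the highest mean in each of the other 3 tissues. Its aleurone libraries held 663, 217 and 230.5 CPM. It reached 148 and 48.7 CPM in pericarp 1 and 3, at most 29.0 CPM in embryo and at most 31.7 CPM in endosperm. Here aleurone 1 was the highest library, and the groups did not overlap.

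BGIOSGA027670 and BGIOSGA005700 were seen in pericarp and had no count in embryo. BGIOSGA027670 (chromosome 8, 2466059 to 2466631, minus strand) had 14.9, 767 and 46.3 CPM in aleurone, and 88.6 and 65.3 CPM in pericarp 1 and 4. Its aleurone mean rested on aleurone 2, which gave 92.6% of the aleurone sum, and the other 2 aleurone libraries lay below both of these pericarp libraries. BGIOSGA005700 (chromosome 2, 32137279 to 32137979, minus strand) had 69.2, 436 and 214 CPM in aleurone and 26.3, 104 and 0.347 CPM in pericarp, so these groups overlapped too. Neither had a count in any embryo library, which puts their aleurone means at least 4434-fold and 3847-fold above the same floor in embryo.

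BGIOSGA024896 (chromosome 7, 1340328 to 1340689, minus strand) was the most abundant gene with no count outside the aleurone, at 18.7, 293 and 84.8 CPM. Its mean was at least 2121-fold above the floor in embryo, 596-fold in pericarp and 2238-fold in endosperm. The floor of 3 counts was 0.0623 CPM in embryo, 0.222 in pericarp and 0.0590 in endosperm. It covers counting error only, since PCR copies that carry no molecular identifier are not separate molecules. Next in abundance with no count outside the aleurone were BGIOSGA007691, described with the steady genes, and BGIOSGA032402 (chromosome 10, 282715 to 284231, minus strand) at 14.6, 91.9 and 60.8 CPM.

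The other 4 of the 10 were BGIOSGA014726, BGIOSGA032336, BGIOSGA034740 and BGIOSGA018751, with aleurone means of 220.5, 126, 121 and 98.8 CPM. BGIOSGA034740 (chromosome 11, 1283002 to 1284212, plus strand) spread most of all, with 4.37, 339 and 19.2 CPM in aleurone. Its single other library with a count, endosperm 3 at 22.8 CPM, lay above aleurone 1 and 3. BGIOSGA018751 (chromosome 5, 3935953 to 3940276, minus strand) was seen in aleurone at 96.7, 177 and 23.1 CPM and in embryo at 15.3, 9.15 and 14.3 CPM, and had no count in pericarp or endosperm.

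**Figure D2:**
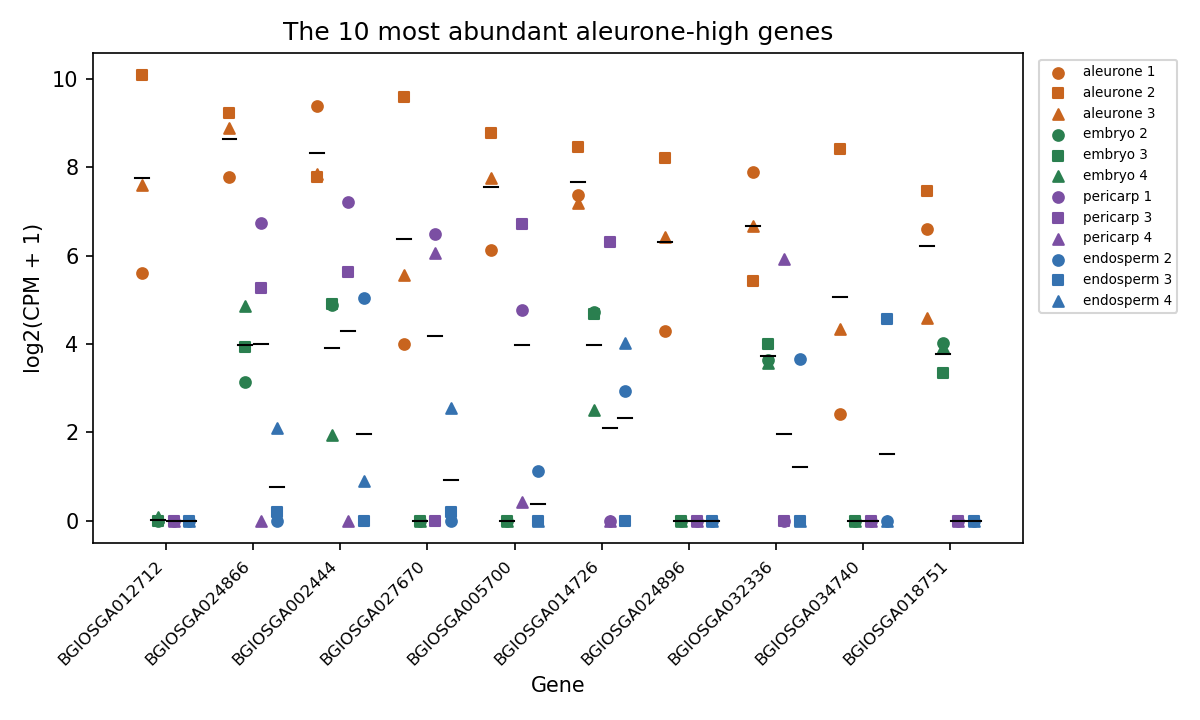
The 10 most abundant aleurone-high genes: each point is 1 library as log2(CPM + 1), colours are tissues, shapes are libraries, and the short black bar is the mean of the 3 points. The aleurone points of BGIOSGA012712, BGIOSGA027670 and BGIOSGA034740 lie far apart, with aleurone 2 at 1082, 767 and 339 CPM.

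The 3 aleurone libraries did not give these genes the same weight. Of the 98, 77 (78.6%) were highest in aleurone 2, 10 in aleurone 1 and 11 in aleurone 3. Among the 5267 other genes with 50 counts in all 3 aleurone libraries, 51.5% were highest in aleurone 2, 32.8% in aleurone 1 and 15.7% in aleurone 3. The median ratio of aleurone 2 to aleurone 1 was 2.97 for the aleurone-high genes and 1.30 for the others. As the rule used the mean of these 3 libraries, which 1 high library can carry, nothing is read from these differences. Aleurone 2 is the shallowest aleurone library. There 50 counts amount to 8.79 CPM, against 3.12 and 3.74 CPM in aleurone 1 and 3. The minimum applied to the 98 genes and to the 5267 others, and whether it acted alike on both sets was not tested. Aleurone 2 also held 2677 CPM of WAXY, the granule-bound starch synthase gene that marks starchy endosperm, against 922 and 1880 CPM in aleurone 1 and 3. The embryo markers listed at the end summed to 31.6 CPM in aleurone 2, against 15.6 and 8.09, and the pericarp markers to 201 CPM, against 107 and 152. OSH71 alone made up the 31.6 CPM, and WOX5, which had no count in embryo, the 8.09. Of the pericarp markers, CIN2 had 0, 133 and 18.9 CPM in aleurone 1, 2 and 3. CHI was lowest in aleurone 2, at 107, 68.0 and 134 CPM. The part of the count minimum, WAXY and these markers in the result was not tested. Without aleurone 2 the rule was met by 213 genes, 75 of the 98 among them, and without aleurone 1 or 3 by 158 and 189 genes, with 92 and 97 of the 98.

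The spread within the aleurone was wider for these genes than for the rest. The rule used the mean of these same 3 libraries, which 1 high library can carry. The spread is therefore given as a description, and nothing is read from the difference. The highest aleurone library was a median of 4.54 times the lowest for the 98, and 2.91 times for the 5267 others. A ratio of 5 or more was found for 43 (43.9%) of the 98 and 21.1% of the others, and a ratio under 2 for 13 (13.3%) and 26.1%. Across genes, which are not independent replicates, Pearson's r of log2 CPM between aleurone 1 and 2 was 0.292 over the 98 and 0.558 over the others. The same r was 0.567 and 0.728 between aleurone 1 and 3, and 0.587 and 0.665 between aleurone 2 and 3.

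A few genes were steady. BGIOSGA007691 (chromosome 2, 5604868 to 5606669, plus strand) had 78.9, 102.5 and 89.5 CPM in aleurone and no count elsewhere, with a ratio of highest to lowest of 1.30, the smallest of the 98. BGIOSGA006552 (chromosome 2, 15130580 to 15132006, minus strand) followed at 41.2, 57.8 and 46.1 CPM. It also had 6.54 and 9.26 CPM in endosperm 2 and 4 and none in embryo or pericarp. BGIOSGA025339 (chromosome 7, 5335125 to 5339066, plus strand) had 47.0, 67.8 and 49.3 CPM in aleurone and no count elsewhere. For these 3 the aleurone SD was 11.8, 8.55 and 11.4 CPM around means of 90.3, 48.4 and 54.7. At the other end, BGIOSGA034740 and BGIOSGA027670 had ratios of 77.6 and 51.4, and BGIOSGA025496 (chromosome 7, 9759553 to 9761183, plus strand) one of 24.4.

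**Figure D3:**
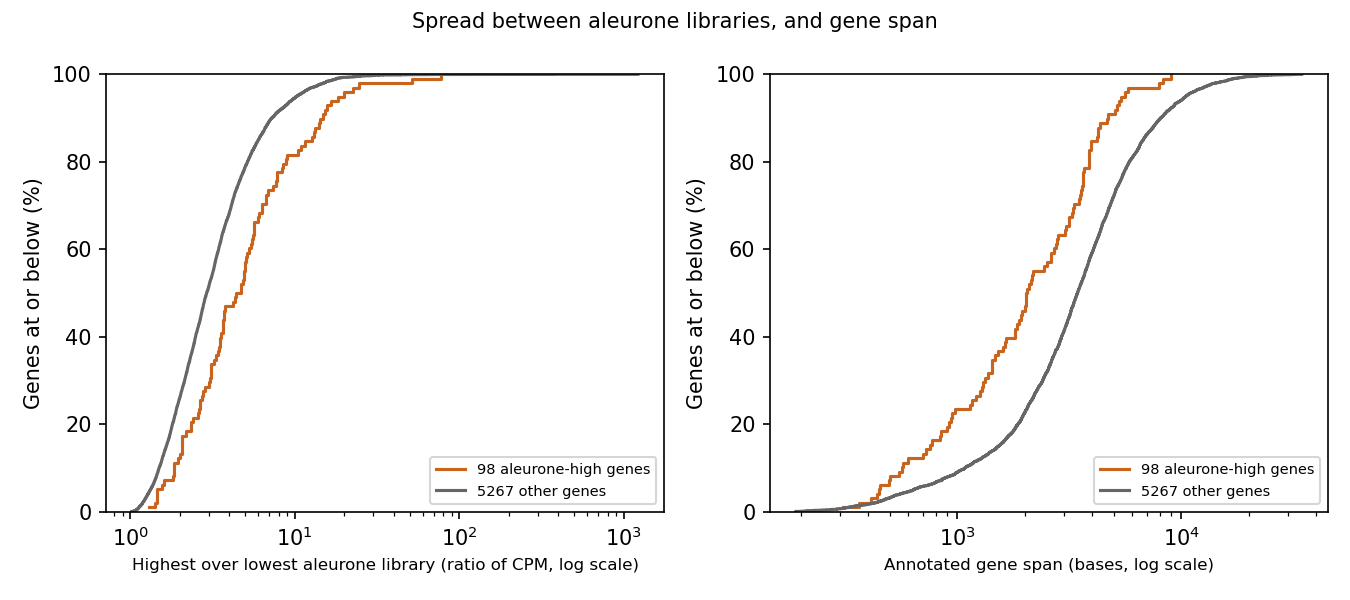
Cumulative share of genes (%) against the ratio of the highest to the lowest aleurone library in CPM (left) and against annotated gene span in bases (right), both on log axes, for the 98 aleurone-high genes and the 5267 other genes with 50 counts in every aleurone library. The aleurone-high line lies to the right at left (median 4.54 against 2.91) and to the left at right (median 2040.5 against 3437 bases).

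Every aleurone library was above every other library for 83 of the 98 genes, and the other 15 overlapped, BGIOSGA027670, BGIOSGA005700, BGIOSGA032336 and BGIOSGA034740 among them. Over all 16347 genes tested, 0.997% were separated in this way; the rule used this contrast, so nothing is read from the difference. The stricter form, the lowest aleurone library at least 5 times the highest other, held for 34 of the 98. The headers name a sequencing lane, 6 for aleurone 1 and 2, embryo 2, pericarp 1 and endosperm 2, and 5 for the rest. With lane 6 alone the aleurone mean was the highest for 98 genes and at least 5 times each other tissue for 80, and with lane 5 alone for 96 and 73. The rule chose the 98 by this contrast in these same libraries, so nothing is read from these counts, and the part of lane was not tested.

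In the other tissues these genes were mostly unseen. Of 882 values, 98 genes in 9 libraries, 699 (79.3%) were 0, 54 were 1 to 49 counts and 129 were 50 counts or more. Among the 5267 other genes 23.2% of the values were 0. The rule kept the level of the 98 low in these tissues, so nothing is read from the difference. No count was found in embryo for 49 of the 98, in endosperm for 49 and in pericarp for 79. With no count in any of the 9 libraries there were 25 genes, and with a count in at most 1 of them 51.

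Where an aleurone-high gene did appear elsewhere, it was often in 1 library of the tissue and at a sizeable count. In endosperm 34 of the 49 genes seen (69.4%) were in exactly 1 library, against 10.8% of the 4987 other genes seen there. In pericarp it was 15 of 19 (78.9%), against 35.3%. In embryo it was 18 of 49 (36.7%), against 1.96% of 5166. As the rule kept the means of the 98 low in these tissues, these differences are not read as a result. A count in all 3 libraries was found for 13 genes in embryo, 2 in endosperm and 1, BGIOSGA005700, in pericarp. Depth differed between these libraries, and its part was not tested. Endosperm 3, with 6367350 counts in all, showed 9 of the 98 genes, and endosperm 2 and 4, with 20027236 and 24412371, showed 25 and 32. Embryo 2, 3 and 4, with 18169845, 14205388 and 15778331 counts, showed 35, 23 and 35. The 3 pericarp libraries, with 6301388, 4355457 and 2879282, showed 12, 6 and 6.

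**Figure D4:**
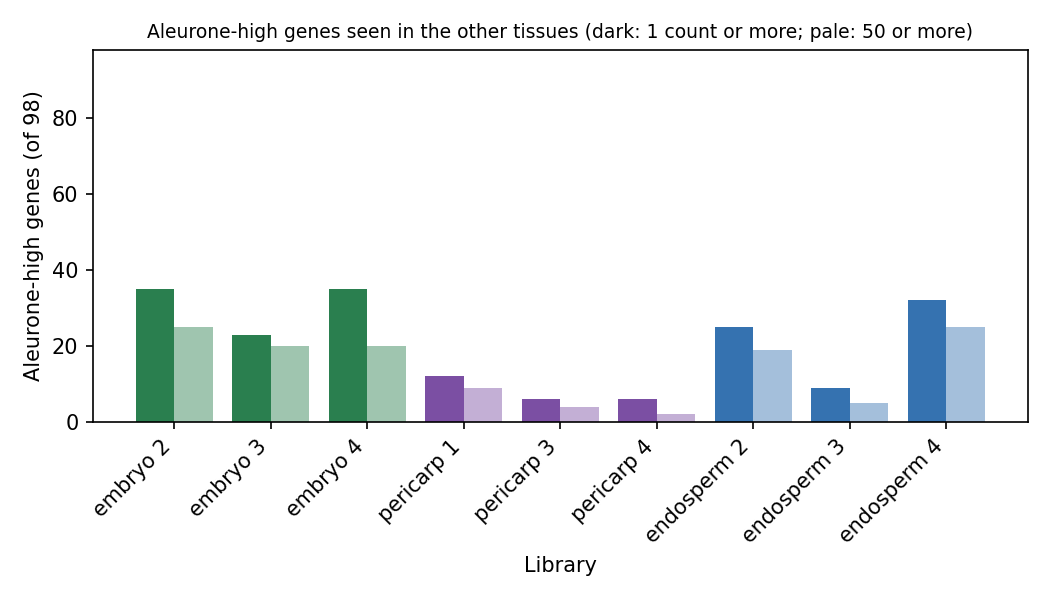
Number of the 98 aleurone-high genes with 1 count or more (dark bars) and with 50 counts or more (pale bars) in each library of the other tissues; there is no error bar, as each bar is 1 library. Embryo libraries show 23 to 35 genes, endosperm libraries 9 to 32 and pericarp libraries 6 to 12.

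The next tissue after aleurone was embryo for 39 genes, endosperm for 23 and pericarp for 11, and 25 had none. For the 73 with a next tissue the median fold over it was 9.46. At the threshold, BGIOSGA026059 and BGIOSGA013147 were the last genes inside on fold, at 5.04 and 5.13 times embryo, and BGIOSGA013655 and BGIOSGA007895 the first outside, at 4.95 and 4.90 times embryo. On counts, BGIOSGA000495 with 50 counts in its lowest aleurone library and BGIOSGA030783 with 55 were inside, and BGIOSGA021115 and BGIOSGA027410, both with 49, outside. A further 219 genes met the fold, and the level of the last member, but fell short of 50 counts in at least 1 aleurone library. The last members by level were BGIOSGA000397 at 8.79 CPM and BGIOSGA030920 at 8.77. As only 98 genes met the rule, none was left out by rank.

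The rule did not use how the other 3 tissues differ from each other, except that each had to lie 5 times below aleurone. These differences were tested with edgeR's quasi-likelihood test on 16347 genes, and all 98 were among those kept by the filter on low counts. They passed through their aleurone counts: without the aleurone libraries the same filter kept 28 of the 98. Most of the 98 therefore had little or no count to compare, and a gene at 0 in both tissues could not be called. The share of the 98 called or separated is largely set by how they were chosen, so the shares over all genes are printed beside it and nothing is read from the difference. Calls needed a fold of 2 or more with a p under 0.05 after Benjamini-Hochberg adjustment over all genes. The spread between libraries of a tissue was wide (biological coefficient of variation 1.87, from edgeR's common dispersion).

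Between embryo and endosperm, 29 of the 98 genes had no count in either tissue. edgeR called 0 of the 98 (0.685% of all genes), with a lowest adjusted p of 0.121, and 31 had an unadjusted p below 0.05 (26.7% of all genes). DESeq2 called 15 (4 higher in embryo and 11 lower, 18.8% of all genes) and limma voom 9 (4 and 5, 28.5%). Some of the 15 rested on 1 library. BGIOSGA000832, at a DESeq2 log2 fold change of -24.3, had counts in endosperm 4 alone of these libraries. Others, such as BGIOSGA018751, were counted in every embryo library. All 3 embryo libraries lay above all 3 endosperm libraries for 6 genes (53% of all genes), and the reverse held for 1 gene (5.19%).

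That gene was BGIOSGA014839 (chromosome 4, 22752956 to 22755095, minus strand). It had 13.7, 11.9 and 3.32 CPM in endosperm 2, 3 and 4, 0, 0 and 1.77 CPM in embryo, and 39.2, 67.3 and 72.5 CPM in aleurone. All its endosperm libraries were also above all pericarp libraries. Its log2 fold change of embryo against endosperm was -5.31 ± 2.41 (SE), which did not pass (edgeR adjusted p = 0.181), and both DESeq2 and limma voom called it.

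The 6 genes of the embryo side were BGIOSGA024866, BGIOSGA018751, BGIOSGA005826, BGIOSGA001678, BGIOSGA034889 and BGIOSGA017743. BGIOSGA018751, BGIOSGA001678 and BGIOSGA017743 were seen in all 3 embryo libraries and in no pericarp or endosperm library. BGIOSGA001678 (chromosome 1, 15963496 to 15966821, minus strand) had 4.51, 9.93 and 7.67 CPM in embryo and 13.4, 119 and 6.51 CPM in aleurone, so these 2 tissues overlapped. BGIOSGA017743 (chromosome 5, 26742366 to 26745992, minus strand) had 3.85, 5.28 and 2.15 CPM in embryo and 8.12, 37.6 and 40.4 CPM in aleurone. The 3 did not pass against endosperm (edgeR adjusted p = 0.121 for each) or against pericarp (0.0612, 0.0804 and 0.0823). A fit of the 9 libraries without aleurone kept 28 of the 98 genes on its filter and called these 3 higher in embryo against both tissues (edgeR adjusted p = 0.0356 for each against endosperm, and 0.0258 to 0.0263 against pericarp). That fit called 17.6% and 29.2% of its genes in the 2 comparisons. Between pericarp and endosperm it called 0 of the 28 (5.35% of its genes), 6 of them with an unadjusted p below 0.05.

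Between embryo and pericarp, 42 of the 98 genes had no count in either tissue. edgeR called 0 of the 98 (2.79% of all genes), with a lowest adjusted p of 0.0612, and 23 had an unadjusted p below 0.05 (40.2% of all genes). DESeq2 called 17 (12 higher in embryo and 5 lower, 32.2% of all genes) and limma voom 8 (6 and 2, 44.2%). Here too some DESeq2 calls rested on 1 library. BGIOSGA018763, at a DESeq2 log2 fold change of 20.7, had counts in embryo 2 alone of these libraries. Others, such as BGIOSGA018751, were counted in every embryo library. Separation of all 3 libraries was found for 6 genes above in embryo (40% of all genes) and for 1 above in pericarp (2.42%). That 1 was BGIOSGA005700, with a log2 fold change of -11.23 ± 2.98 (SE) that did not pass (edgeR adjusted p = 0.0673). By library number as a replicate block it was called (edgeR adjusted p = 0.0129). It was also called without pericarp 4 (edgeR adjusted p = 0.0433), and BGIOSGA018751 was called without endosperm 3 (0.0408).

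Between pericarp and endosperm, 44 of the 98 genes had no count in either tissue. edgeR called 0 of the 98 (2.46% of all genes), with a lowest adjusted p of 0.113, and 25 had an unadjusted p below 0.05 (30.3% of all genes). DESeq2 called 20 (2 higher in pericarp and 18 lower, 30.2% of all genes) and limma voom 1, lower in pericarp (10.3%). Some of the 20 rested on 1 library of this pair. BGIOSGA034740 had counts in endosperm 3 alone (DESeq2 log2 fold change -22.5) and BGIOSGA018727 in pericarp 1 alone (23.3). Others, such as BGIOSGA014839, were counted in every endosperm library. No gene had all 3 pericarp libraries above all 3 endosperm libraries (4.59% of all genes), and 1 gene, BGIOSGA014839, had the reverse (8.08%). Library totals in place of TMM factors would shift every gene by 1.24, -0.43 and 1.67 on the log2 scale in the 3 comparisons.

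Aleurone-high genes had short annotated spans. The median span from start to end of the gene was 2040.5 bases for the 98 (from 309 to 8993) and 3437 for the 5267 others. Under 1000 bases there were 23 of the 98 (23.5%), against 9.06% of the others, and over 5000 bases 9 (9.18%), against 27.8%. Of the 10 genes with the highest aleurone mean, BGIOSGA012712, BGIOSGA002444, BGIOSGA027670, BGIOSGA005700 and BGIOSGA024896 spanned under 1000 bases.

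The 98 genes were spread over all 12 chromosomes. Chromosome 3 held 16 of them (16.3%, against 15.3% of the 5267 others), chromosome 1 13, chromosomes 2 and 5 10 each, and chromosome 12 3. Chromosome 11 held 7 (7.14%, against 3.42%) and chromosome 6 4 (4.08%, against 8.03%). The plus strand carried 47. No gene had another of the 98 as its direct neighbour, and 111 of the 196 direct neighbours had no count in any aleurone library. Of all 37878 genes, 13676, 8158 and 11599 had a count in aleurone 1, 2 and 3. The share of all genes with no aleurone count was not worked out, so nothing is read from the 111. For 3 of the 98 the annotated span overlapped a neighbouring gene, which had no count in aleurone in each case. Whether counting used strand was not stated in those sources.

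Close together lay 3 of the 98, on the plus strand of chromosome 2: BGIOSGA007687 (5564273 to 5565873), BGIOSGA007689 (5576453 to 5577300) and BGIOSGA007691 (described above as the steadiest). BGIOSGA007687 had 32.7, 24.6 and 35.9 CPM in aleurone and BGIOSGA007689 5.25, 18.5 and 26.7 CPM. None of the 3 had a count in any other library. Their means were 31.1, 16.8 and 90.3 CPM, at least 499-fold, 269-fold and 1449-fold above the floor in embryo.

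Both genes lying between them, on the same strand, were also counted in all 3 aleurone libraries. BGIOSGA007690 (5600304 to 5601266) had 17, 359 and 38 aleurone counts and none elsewhere, and missed the rule on its count alone. BGIOSGA007688 (5569750 to 5571671) had 90.0, 198 and 48.97 CPM in aleurone, but also 123 and 307 CPM in pericarp 3 and 4 and 31.9 CPM in endosperm 3. Of these 5 genes, over 42397 bases, 4 had counts in every aleurone library and none outside, as did 32 (0.0845%) of the 37878 genes of the table. Just upstream, BGIOSGA007686 had 94.2, 180 and 136 CPM in aleurone and 238 CPM in pericarp 3, with lower counts in embryo 2, pericarp 1, endosperm 2 and endosperm 3. The run was picked out after its values were seen. Whether these genes are copies of one another was not analysed here, and near-identical copies could share reads.

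**Figure D5:**
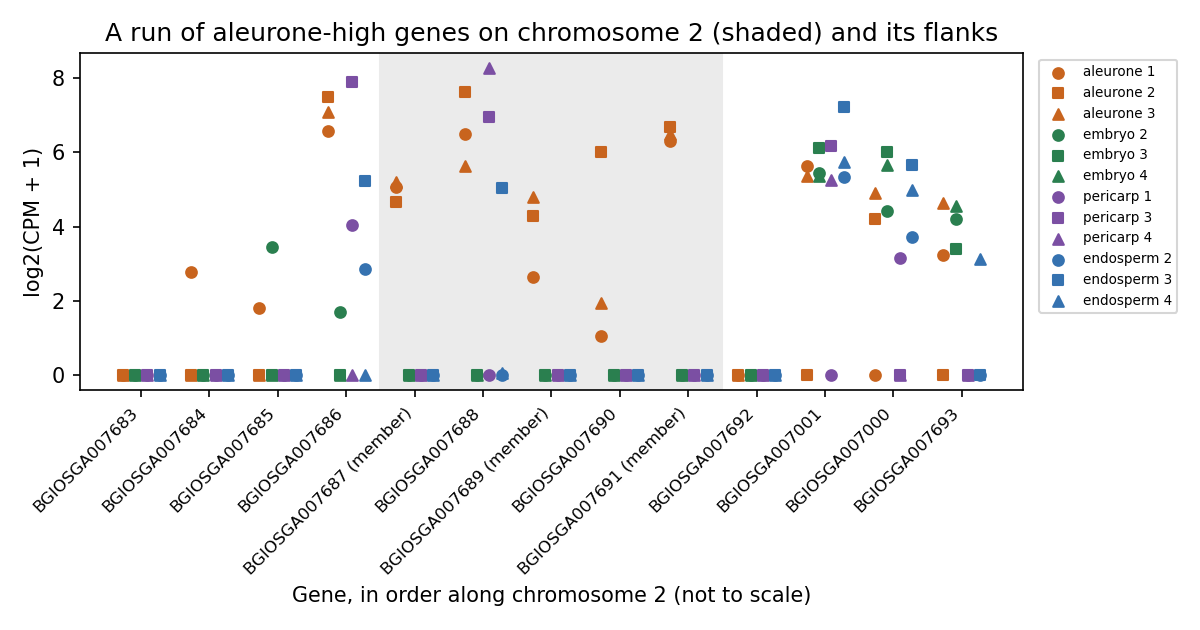
The run of 5 genes on chromosome 2 (shaded) and the 4 genes on each side, in their order along the chromosome and not to scale; each point is 1 library as log2(CPM + 1). BGIOSGA007687, BGIOSGA007689, BGIOSGA007690 and BGIOSGA007691 have points above 0 in aleurone and at 0 in the other 9 libraries.

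Other close sets were looser. BGIOSGA032336 (chromosome 10, 1716843 to 1718875) and BGIOSGA032335 (1722255 to 1727838), both on the minus strand, had 1 gene between them, on the other strand and with counts in endosperm 2 alone. BGIOSGA032336 had 236, 41.8 and 101.5 CPM in aleurone and BGIOSGA032335 91.3, 22.3 and 16.2, and for both aleurone 1 was the highest library. BGIOSGA001681 (chromosome 1, 15915677 to 15919869) and BGIOSGA001678 lay on the minus strand with 2 genes between them. BGIOSGA001681 was steady in aleurone, at 24.05, 35.0 and 27.9 CPM, with 8.56 CPM in embryo 4 and no other count.

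Genes with a symbol could not be members by the rule. When the same limits were applied to the 412 genes with a symbol, 120 had 50 counts in every aleurone library and 1 also met the fold. This was ITPK4 (chromosome 2, 16882427 to 16883494, plus strand), whose product is named as an inositol phosphate kinase of the family that acts towards phytate. It had 47.2, 26.5 and 39.7 CPM in aleurone, at most 5.89 CPM in embryo, 4.04 CPM in endosperm 2 and 0.159 CPM in pericarp 1, with 0 in the other pericarp and endosperm libraries. Of the same family, ITPK1, ITPK2, ITPK3 and ITPK6 did not have their highest mean in aleurone. ITPK6 had 139, 163 and 114 CPM in aleurone, 173, 188 and 243 in embryo, and 0, 129 and 879 in pericarp, so its pericarp mean rested on pericarp 4. The ITPK genes were chosen after their values were seen.

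The labelled tissue was set against lists of marker genes, matched by symbol. Of the oil, storage and desiccation list 6 of 18 genes had a row, of the hormone and hydrolase list 5 of 22 and of the mineral, phytate and transport list 9 of 19. None of those matched met the fold of 5 over each other tissue. SUT1, a sucrose transporter gene, was the 1 matched gene with its highest mean in aleurone, at 597 ± 435 CPM (SD, n = 3). Its pericarp mean was 440 ± 229 CPM, and aleurone 1, at 188 CPM, lay below every pericarp library. SWEET11, a sugar transporter gene, had 308 ± 151 CPM in aleurone and more, 691 ± 229 CPM, in pericarp. edgeR called SUT1 and SWEET11 higher in aleurone than in embryo, where 0.447% of all genes were called. It called no gene of these 3 lists against pericarp or endosperm, where 1.63% and 0.0428% of all genes were called. The median log2 fold change against endosperm was 3.74 for the oil list and -0.58 for the mineral list, beside 0.36 over all genes. No count in endosperm was found for 4 of the 5 hormone genes. Among these, MYBS1 had no count in any library, so its absence from endosperm says nothing. OLE18, an oil body gene, had 2114 ± 582 CPM in aleurone, 2284 ± 641 in embryo and 2644 ± 943 in pericarp.

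Markers of other tissues were present in the aleurone libraries, as list sums at lower levels than in their own tissue. WAXY, the 1 starchy endosperm marker matched, ran from 922 to 2677 CPM in aleurone, from 715 to 3059 in pericarp and from 18749 to 37209 in endosperm. The 7 embryo markers summed to 8.09 to 31.6 CPM in aleurone and 482 to 522 in embryo. OSH15, WOX4, SHR1 and CYCB2-1, all counted in every embryo library, were at 0 in aleurone. OSH71 had 15.6, 31.6 and 0 CPM in aleurone 1, 2 and 3, and 58.1, 22.2 and 52.1 CPM in embryo 2, 3 and 4. The 8.09 CPM in aleurone 3 was WOX5 alone, a listed gene at 0 in every embryo library. MCM3 had 0.0625 CPM in aleurone 1 and 0 in aleurone 2 and 3. The 7 pericarp markers matched summed to 107 to 201 CPM in aleurone and 295 to 3313 in pericarp, and CHI and CIN2 were the 2 of them counted in aleurone. In pericarp 1, 3 and 4 CHI had 28.1, 546 and 3313 CPM, and CIN2 had 267, 149 and 0. CHI in pericarp 1 thus lay below every aleurone library, and the highest pericarp sum was CHI in pericarp 4. CHS1, ANS1, LTD, TROL and EGY2 were at 0 in aleurone, but ANS1 was at 0 in all 12 libraries, LTD, TROL and EGY2 were at 0 in pericarp too, and CHS1 was seen in pericarp 3 alone of the pericarp libraries. Their absence from aleurone therefore says nothing about pericarp RNA there.

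The same rule, without its limit of 100, was met by 1663 embryo genes of 11339 with 50 counts in all 3 libraries (14.7%), 180 endosperm genes of 4245 (4.24%) and 43 pericarp genes of 1279 (3.36%). The aleurone share of 1.83% was thus the lowest of the 4 tissues, with no test, since the counts come from the rule. The minimum of 50 counts stands for a different CPM in each library, so the 4 shares are not like for like.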

How the data were processed

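Kits for RNA and libraries were PicoPure and NEBNext Ultra, with 10 ng of total RNA as input, per the labels' protocols and the design text. The deposited table gives counts per gene, whole numbers that were not normalized, per the file headers. Another 36 per-library columns (RPKM, TPM and CPM) were not used. No aligner, build or annotation is stated in the sources used here. Columns were assigned by header codes: Al, Em and Pc from letters of the tissue names, and Se to endosperm as the 1 tissue remaining. Header numbers differ from those of the sample titles.

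CPM were counts over column sums (Python 3.11.15, pandas 2.3.3, figures with matplotlib 3.10.9). Tests used edgeR 4.0.16 in R 4.3.3 (filterByExpr with a minimum count of 10, TMM factors, 12 libraries, tissue as the only term), with DESeq2 1.42.0 and limma 3.58.1 (voom) as alternatives. Standard errors are the size of the log2 fold change divided by the root of F. The code was tested on simulated data. The members and lists were chosen with earlier results of these data known. Named by rule are the 10 members with the highest mean, those at the thresholds, the 3 steadiest and 3 most variable, the 3 most abundant with no count elsewhere, the 2 highest in each other tissue, and those close on a chromosome. Members separated between the other tissues, the chromosome 2 run and the ITPK genes were added after values were seen. Where a tissue was at 0, a fold uses a floor of 3 counts over its 3 libraries.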

Additional observations from a re-analysis of the deposited data

How the results depend on the processing

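Of the 98 genes, 59 remained with a fold of at least 10, 63 with 100 counts or more, and 34 when the lowest aleurone library had to be 5 times the highest other. A fold of 3 was met by 170 genes, 10 counts or more by 119 and TMM-scaled CPM by 119 (87 of the 98). TPM in place of CPM was not run, since those columns were not used. Limited to 100, the lists without 1 library each held 97 to 100 genes, 47 (aleurone 2) to 94 (endosperm 4) of them among the 98. The 77 genes highest in aleurone 2 became 60 with TMM and 74 with DESeq2 size factors, and the 83 separated from all other libraries 82 with TMM and 83 to 89 without 1 library. The 25 with no count outside aleurone became 36 when a mean below 1 CPM counted as absent, and 25 to 33 without 1 library. The scalings for the genes highest in aleurone 2, and the alternatives for the separated genes and for the genes with no count outside aleurone other than the limit of 1 CPM, were chosen after seeing the data.

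Calls between the other tissues depended on the method. Of the 98, edgeR called 0 in each pair; embryo against endosperm, embryo against pericarp and pericarp against endosperm gave 15, 17 and 20 with DESeq2, 9, 8 and 1 with limma voom, and 3, 3 and 0 in a fit of the 9 libraries without aleurone, where fewer members passed the filter. DESeq2 gave no adjusted p for 6 members, and some of its calls rested on counts in 1 library alone. Without 1 library edgeR called 0 to 1 for embryo against pericarp and 0 in the other pairs (BGIOSGA005700 without pericarp 4, BGIOSGA018751 without endosperm 3). With the replicate block, by the header's library number, edgeR called 1 (BGIOSGA005700), 0 and 0 in embryo against pericarp, embryo against endosperm and pericarp against endosperm. Deviations from the tissue means had correlations of -0.0382 to 0.0263 between same-numbered libraries of different tissues. Between libraries of other numbers they were -0.0287 to 0.0429. With the wide spread between libraries of a tissue, these values cannot tell whether same-numbered libraries shared seeds. Library totals alone, DESeq2 size factors, no filter and lane as a covariate left all 3 counts at 0. The cause of these differences was not tested.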
